A study of Mus musculus with 7 samples.

Results

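The 43 genes described here encode the proteins that license, fire and copy from DNA replication origins. They were chosen by function, with no measured value in the rule but with earlier results of these data known. Of the 43, 43 were found among the 46959 features of the deposited table and passed the filter on low reads. The RNA came from B cells of mouse spleen kept for 4 days with LPS (1 µg/mL), a bacterial product that activates B cells, and IL-4 (20 ng/mL), a cytokine of helper T cells. The cKO MED1 group held 4 libraries and the WT group 3, both groups received the same stimulation, and no unstimulated or earlier samples were used here. cKO MED1 refers to Med1, a subunit of Mediator, the complex that passes signals from bound transcription factors to the RNA polymerase II machinery. The Cre driver, the deleted exons, the strain, the age of the mice and whether each library came from its own mouse do not appear in the sources at hand, and p-values therefore speak only of the spread between the 7 libraries.

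Replication starts when the origin recognition complex (ORC), Cdc6 and Cdt1 load the MCM2-7 helicase on DNA in G1, and geminin prevents a second loading in the same cycle. At the start of S phase the kinase Cdc7-Dbf4 and the firing factors add Cdc45 and the GINS complex, which turns the loaded ring into the active CMG helicase. Polymerase alpha with primase then lays down primers, polymerases epsilon and delta extend the leading and lagging strands on the PCNA clamp that replication factor C (RFC) loads, Fen1 and ligase 1 join the lagging-strand fragments, and replication protein A (RPA) covers the single strands. LPS and IL-4 drive resting splenic B cells into repeated division, and transcription of many of these genes is known to rise as cells enter the cycle through E2F factors. In a bulk culture, fewer cycling cells and less RNA per cycling cell cannot be told apart.

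Levels are given as normalised reads, that is whole reads scaled to a common library size, and were tested with limma, a linear model fitted to log2(normalised reads + 1) of all genes, with a call at an adjusted p under 0.05. Of the 43 genes, 33 were lower in cKO MED1, 0 were higher and 10 were not called. Among all 18062 tested genes the same test called 14.6% lower and 13.4% higher. The replication genes are highly expressed, and when the tested genes were split by mean level into 3 equal classes, 37 of them fell in the highest class and 6 in the middle class. In that highest class, 27.8% of the 6021 genes were called lower. The median log2 fold change, cKO MED1 minus WT, was -0.54 for the 43 genes, -0.15 for the highest class and 0.04 for all tested genes. The log2 fold changes ran from -0.93 for Pold1, the catalytic subunit of polymerase delta, to 0.08 for Rpa3, the smallest RPA subunit, and 41 of 43 were below 0. 18 genes were called and lower by a fold of 1.5 or more, which held for 4.42% of all tested genes. The 10 genes without a call were Orc3, Orc4, Orc5, Gmnn, Cdc7, Gins3, Gins4, Pold3, Pole2 and Rpa3. Of all 43, 40 had an unadjusted p under 0.05, as did 43.6% of all tested genes in either direction.

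**Figure D1:**
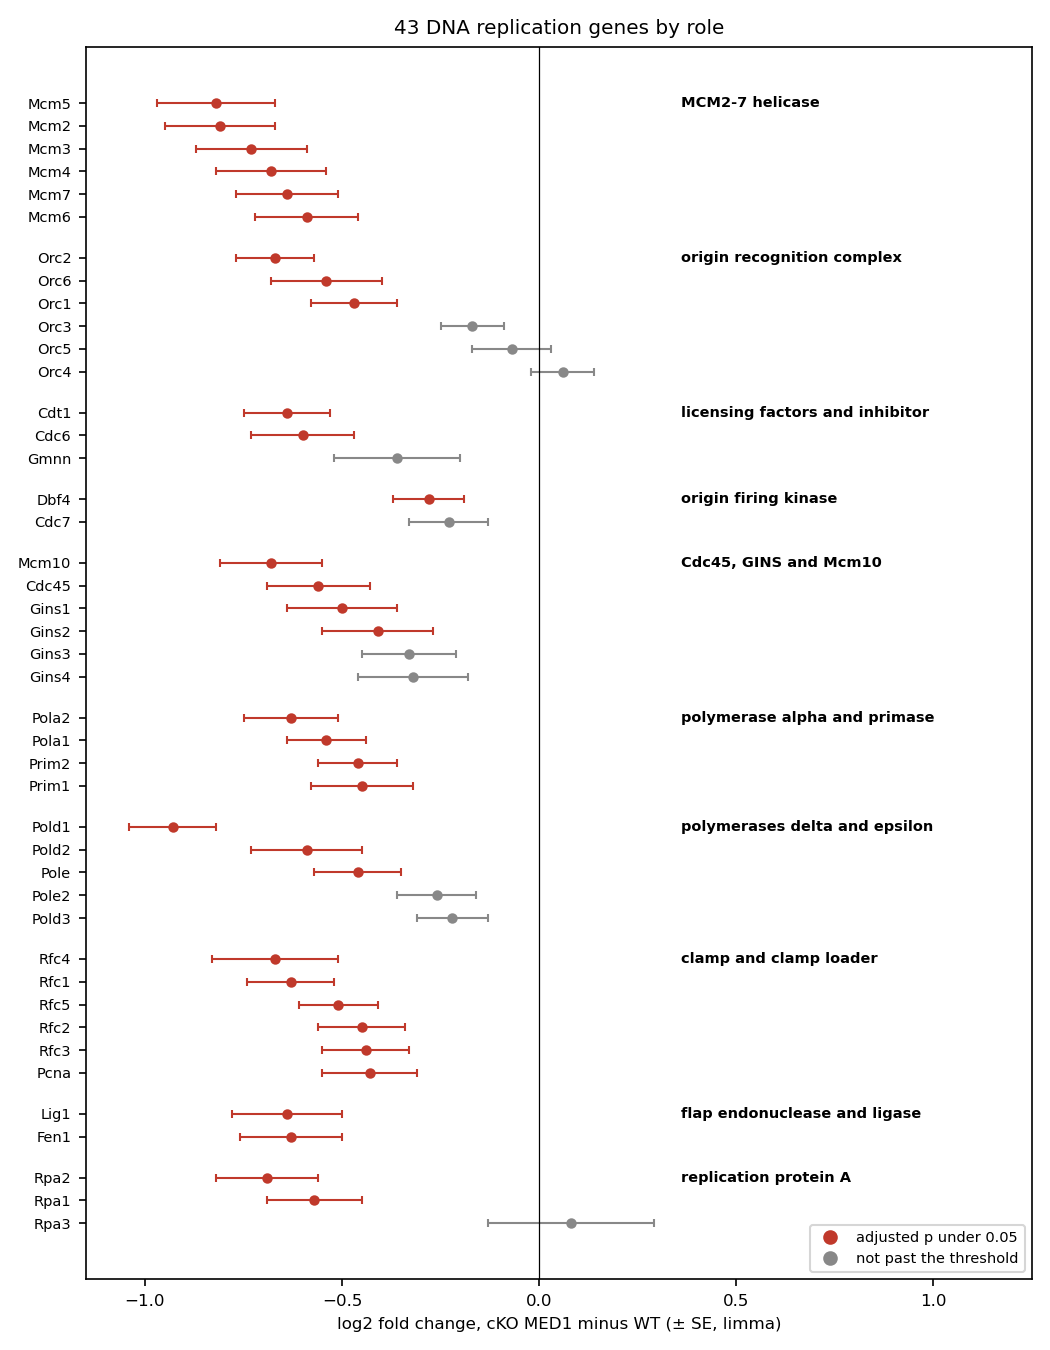
Log2 fold change of each of the 43 replication genes, cKO MED1 minus WT, on log2(normalised reads + 1), with SE as bars and genes grouped by role down the page. The 33 called genes, in red, lie between -0.93 and -0.28, and the points of Orc4 and Rpa3 lie above 0.

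**Figure D2:**
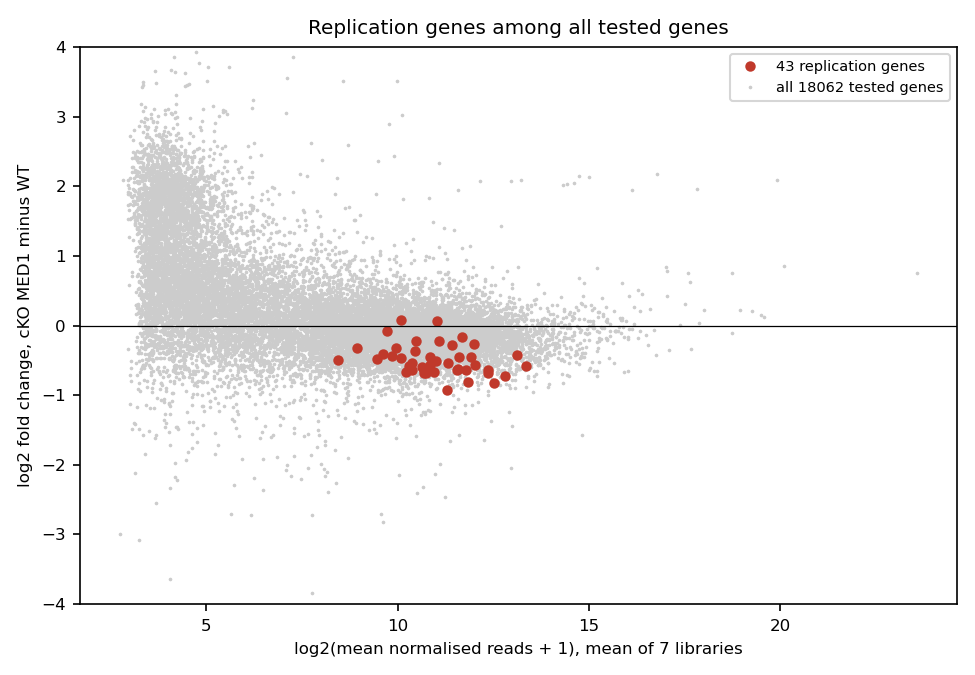
Log2 fold change, cKO MED1 minus WT, against log2 of the mean normalised reads + 1 over the 7 libraries, with the replication genes in red and all 18062 tested genes in grey. The axis stops at 4 on either side, which leaves out 33 grey points, and 41 of 43 red points lie below 0 in the part of the plot that holds the highly expressed genes.

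Med1 itself had 2585, 2172, 2249 and 2436 normalised reads in cKO MED1 libraries 1 to 4, against 4755, 4173 and 4210.1 in WT libraries 1 to 3. The groups did not overlap and 53.9% of the WT mean remained (log2 fold change -0.89, SE 0.09, limma adjusted p = 0.000174). Depth lay between 31937372 and 49603193 reads in the cKO MED1 libraries and between 54736580 and 61149274 in the WT libraries. Reads of Xist and of the Y-linked gene Ddx3y marked 1 of the 4 cKO MED1 libraries, number 3, as male and the other 3 as female, whereas all 3 WT libraries were male. WT library 2 also held 1521 Xist reads. Reads of 1834 olfactory and vomeronasal receptor genes, which B cells are not known to use, made up 30.5, 40.6, 65.3 and 104 ppm of all reads in cKO MED1 libraries 1 to 4, against 16.3, 31.6 and 26.5 in WT libraries 1 to 3. The first principal component of all tested genes held 71.5% of the variance and had cKO MED1 library 4 and WT library 1 at its ends. Of 5 B cell markers, 4 were called lower and their summed level lay between 92143 and 107067 normalised reads in cKO MED1 and between 134992 and 146886 in WT. The summed T cell markers stayed between 20.3 and 119 normalised reads in cKO MED1 and between 22.0 and 37.5 in WT. The summed markers of NK cells and of neutrophils reached at most 61.9 and 69.5 normalised reads in cKO MED1 and 22.4 and 10.6 in WT, with no call among the tested NK cell genes and Mpo called higher (limma adjusted p = 0.0274) among the neutrophil genes. Those of macrophages and monocytes lay between 536 and 769 in cKO MED1 and between 432 and 692 in WT, and those of erythroid cells between 129 and 457 in cKO MED1 and between 131 and 243 in WT, with Hba-a1 called higher (log2 fold change 2.62) and Hbb-bt lower (-1.47). Stromal and endothelial markers summed to between 1001 and 1157 in cKO MED1 and between 1387 and 1621 in WT. Nearly all of that sum was Pecam1, which was called lower (-0.54), while Col1a1 (1.66), Col1a2 (1.94), Col3a1 (1.10) and Cdh5 (0.58) had positive log2 fold changes with no call. Dendritic cell markers summed to between 3483 and 4623 in cKO MED1 and between 2379 and 3330.1 in WT, with Flt3 called higher (0.65). Plasma cell markers summed to between 38493 and 58822 in cKO MED1 and between 68132 and 104025 in WT, with Jchain (-1.58) and Sdc1 (-1.22) called lower and Prdm1 (0.71) higher. The part of these shifts in the levels given below was not tested.

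The replication genes together took 0.22%, 0.213%, 0.188% and 0.14% of all reads in cKO MED1 libraries 1 to 4, against 0.381%, 0.294% and 0.297% in WT libraries 1 to 3. Every cKO MED1 library thus gave a smaller share than every WT library. cKO MED1 library 4 had the lowest level of 34 of the 43 genes and cKO MED1 library 1 that of 6, while WT library 1 had the highest level of 38. The matching shares of all tested genes were not computed, so these counts cannot be read as particular to the replication genes. On the first principal component of all tested genes, cKO MED1 library 4 and WT library 1 lay at the ends as well. cKO MED1 library 4 and WT library 1 also had the most and the fewest receptor reads. With a background per kb of exon subtracted, estimated from the same receptor genes, 33 genes were called lower as before, beside 2668 of all 18062 tested genes. Without cKO MED1 libraries 3 and 4 the count was 26, where 7.34% of all genes tested in that fit were lower. Without cKO MED1 library 4 alone it was 27, against 8.9% of all genes tested, and without WT library 1 it was 22, against 5.25%.

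In 38 of the 43 genes all cKO MED1 libraries lay below all WT libraries, which was so for 19.8% of all tested genes. The genes whose groups overlapped were Orc4, Orc5, Gmnn, Gins4 and Rpa3. The 1 male cKO MED1 library lay below all 3 male WT libraries for 39 of 43 genes, against 38.4% of all tested genes. In a fit with sex as a covariate, where the effect of genotype within a sex rests on that 1 library, Pold1 was the 1 gene called lower (log2 fold change -0.97, limma adjusted p = 0.0276), and 0.659% of all tested genes were called lower. The median of the 43 log2 fold changes was then -0.43, with 41 of them below 0, against a median of 0.01 for all tested genes, and 24 had an unadjusted p under 0.05, as did 22.2% of all tested genes in either direction. Beyond that library, sex and genotype cannot be told apart. Among the replication genes Pola1 alone is X-linked, and the others are spread over the autosomes, with 9 on chromosome 5 and 6 on chromosome 8.

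**Figure D3:**
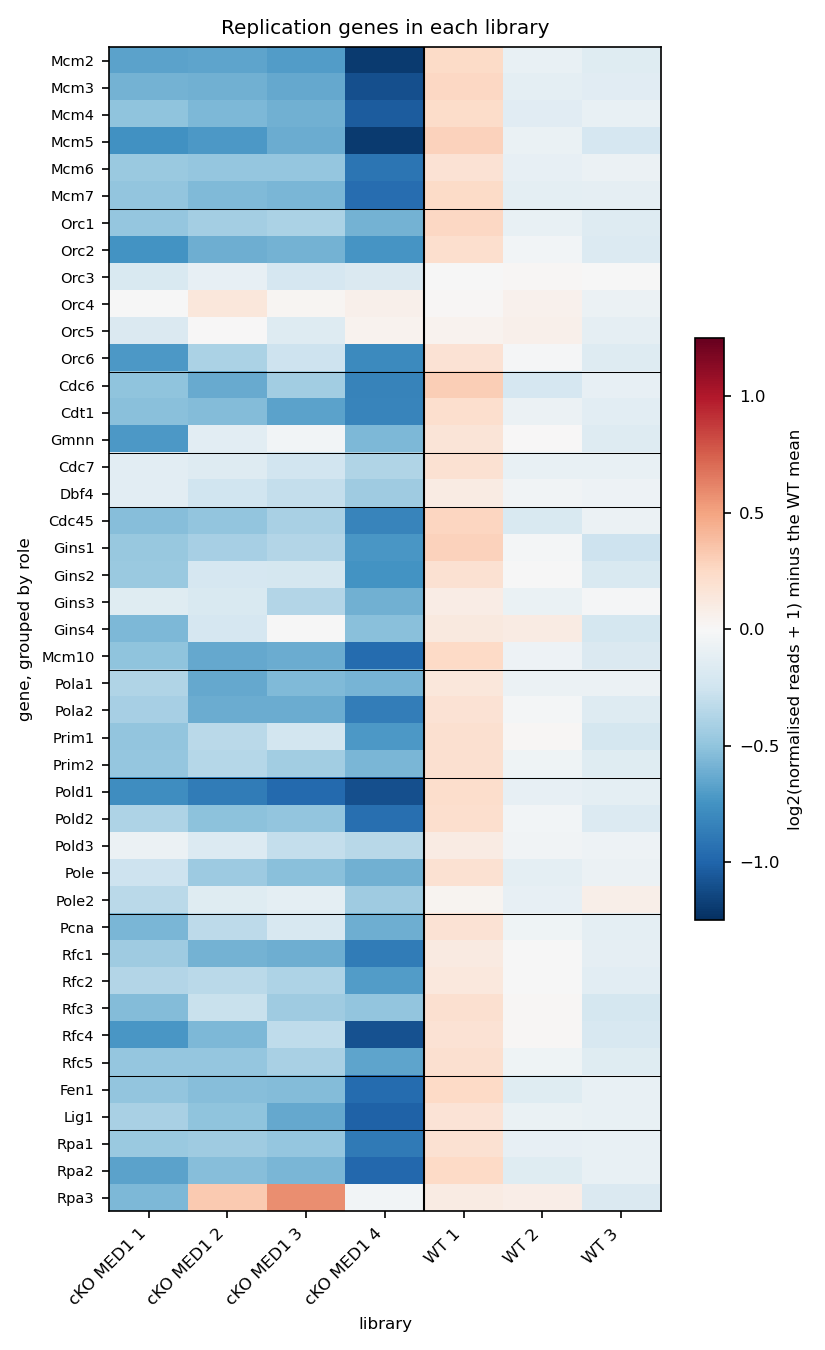
Level of each replication gene in each library as log2(normalised reads + 1) minus the mean of the 3 WT libraries, cKO MED1 on the left and WT on the right, with genes grouped by role down the page. Blue fills nearly all cells of the 4 cKO MED1 columns and is deepest in library 4, and the cells of Rpa3 in libraries 2 and 3 stand out in red.

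As a description, promoters were read for the E2F motif in RefSeq windows of 300 bases on GRCm38.p6, 250 before and 50 after the start. The motif was TTTCCCGC, TTTCGCGC, TTTGCCGC or TTTGGCGC, on either strand, with overlapping matches counted. Windows were found for 35 of the 43 genes. Some genes had several windows, and such a gene was counted as holding a word if any of its windows did. The motif was in 15 of the 35 (42.9%), in 4.44% of 11262 tested genes and in 2.6% of all 27025 genes of the table. It was in 11 of 27 genes called lower (40.7%) and in 4 of 8 genes not called (50.0%). The genes were chosen by function, and whether the motif has a part in their lower levels was not tested. The word CCAAT was in 60.0% of the 35 promoters and 42.6% of those of tested genes, and CCCGCC, a GC-box word that can overlap the E2F motif, in 80.0% and 64.3%. Median GC content, taken from the window with the highest GC content of each gene, was 63.3% in the 35 and 61.3% in tested genes. The 4 windows below belong to the genes with the largest falls outside and inside the MCM group, Pold1 and Mcm5, and to a pair from the same complex, Orc2 (called lower) and Orc3 (not called). Each is written 5′ to 3′ on the strand of the gene, with the E2F motif in capitals.
Pold1, chr7:44548766-44549065, strand -: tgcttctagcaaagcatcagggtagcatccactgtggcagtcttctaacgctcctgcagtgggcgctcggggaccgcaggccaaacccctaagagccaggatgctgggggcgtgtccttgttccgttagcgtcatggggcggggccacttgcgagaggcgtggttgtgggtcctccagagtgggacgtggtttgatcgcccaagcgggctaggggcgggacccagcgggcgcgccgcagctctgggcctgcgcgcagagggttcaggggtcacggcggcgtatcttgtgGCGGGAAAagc
Mcm5, chr8:75109259-75109558, strand +: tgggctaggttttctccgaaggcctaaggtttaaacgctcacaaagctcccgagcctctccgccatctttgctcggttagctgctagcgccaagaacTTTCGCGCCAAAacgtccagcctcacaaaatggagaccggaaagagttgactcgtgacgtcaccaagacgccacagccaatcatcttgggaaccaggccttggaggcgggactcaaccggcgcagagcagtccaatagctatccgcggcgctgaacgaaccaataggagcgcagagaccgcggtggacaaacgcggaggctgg
Orc2, chr1:58505060-58505359, strand -: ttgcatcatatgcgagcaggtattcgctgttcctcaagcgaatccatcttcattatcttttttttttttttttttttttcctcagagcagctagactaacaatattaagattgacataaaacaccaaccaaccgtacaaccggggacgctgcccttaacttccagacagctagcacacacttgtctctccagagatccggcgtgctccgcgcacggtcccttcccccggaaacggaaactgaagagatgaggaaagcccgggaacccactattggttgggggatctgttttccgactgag
Orc3, chr4:34614893-34615192, strand -: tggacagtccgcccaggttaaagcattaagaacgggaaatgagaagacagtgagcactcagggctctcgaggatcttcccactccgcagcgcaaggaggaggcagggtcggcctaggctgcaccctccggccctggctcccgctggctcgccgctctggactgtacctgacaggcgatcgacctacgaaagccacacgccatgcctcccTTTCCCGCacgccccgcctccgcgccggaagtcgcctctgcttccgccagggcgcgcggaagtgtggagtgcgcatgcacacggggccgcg
Pold1 held the motif at base +40 from the start, Mcm5 a pair of overlapping motifs at bases -153 and -149, and Orc3 a motif at base -41, whereas this window of Orc2 held none of the 4 words. Orc1, which was also called lower, held a motif at base -27.

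All 6 genes of the MCM2-7 helicase, the ring that unwinds DNA at each fork, were lower in cKO MED1, with a median log2 fold change of -0.70. Beside this and the counts by role below, 14.6% of all tested genes and 27.8% of the highest class by mean level were called lower. Mcm2 had 3046, 3058, 2971 and 2108 normalised reads in cKO MED1, against 5722, 4521 and 4366 in WT. Mcm5 had 4533, 4663, 4988 and 3340.0 in cKO MED1, against 9392, 7251 and 6632 in WT. For both, the highest cKO MED1 library was below the lowest WT library, and 57.4% and 56.5% of the WT mean remained. Their log2 fold changes were -0.81 (SE 0.14, limma adjusted p = 0.00399) for Mcm2 and -0.82 (SE 0.15, limma adjusted p = 0.00443) for Mcm5. Mcm3 had 6069, 6043, 5849 and 4279 normalised reads in cKO MED1, against 10926, 8406 and 8308 in WT (log2 fold change -0.73, limma adjusted p = 0.00583). Mcm4 had 4694, 4505, 4376 and 3223 in cKO MED1, against 7771, 6024 and 6242 in WT (log2 fold change -0.68, limma adjusted p = 0.00748). In these and in the remaining pair, library 4 was the lowest of the cKO MED1 libraries and library 1 the highest of the WT libraries. Mcm6 had 9286, 9175, 9123 and 6777 in cKO MED1, against 14468, 11906 and 12144 in WT (log2 fold change -0.59, limma adjusted p = 0.00995). Mcm7, whose introns host microRNA genes, had 4679, 4483, 4436 and 3409.5 in cKO MED1, against 7759, 6049 and 6102 in WT (log2 fold change -0.64, limma adjusted p = 0.00671). All 6 MCM calls held with each library left out in turn and without cKO MED1 libraries 3 and 4 together, and none held with sex as a covariate, where the median was -0.61 (6 of 6 at a negative log2 fold change).

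**Figure D4:**
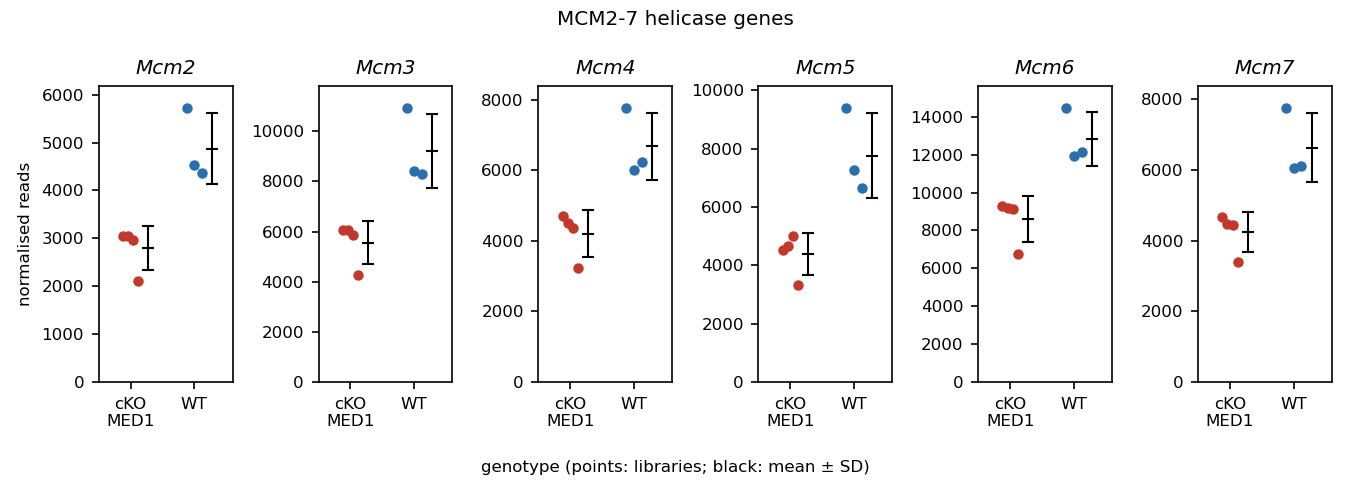
Normalised reads of the 6 MCM2-7 genes in each library, with points for libraries, black marks for mean ± SD, cKO MED1 (n = 4) left of WT (n = 3) and axes from 0. In every panel the 4 cKO MED1 points lie below the 3 WT points, and the lowest point is cKO MED1 library 4.

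Because each ring holds 1 copy of each subunit, the transcripts were also set on one scale per kb of exon. Lengths were those of all annotated exons of a gene merged, whether or not the cells use them. Mcm2 was given 6956 bases, and the other subunits between 3589 (Mcm4) and 4666 (Mcm6). Ranks between genes on this scale therefore depend on the annotation. The 6 genes summed to 6953 ± 1036 normalised reads per kb in cKO MED1 (SD, n = 4) and 11211 ± 1642 in WT (SD, n = 3). Mcm6 had the largest share of the sum, with 26.5% ± 0.257 of it in cKO MED1 and 24.6% ± 0.907 in WT, and Mcm2 the smallest, with 5.77% ± 0.119 in cKO MED1 and 6.24% ± 0.0901 in WT. Mcm5 took 15.8% ± 0.772 in cKO MED1 and 17.3% ± 0.904 in WT. Mean shares of Mcm3, Mcm4 and Mcm7 were between 13.8% and 21.3% in cKO MED1 and between 13.4% and 21.9% in WT. In relative size, the summed level thus differed far more between the genotypes than the make-up of the sum. The groups were still apart for the shares of Mcm2 (5.61% to 5.9% in cKO MED1, 6.14% to 6.31% in WT) and Mcm6 (26.4% to 26.9%, 23.7% to 25.5%). They were narrowly apart for Mcm3 (21.0% to 21.6%, 21.7% to 22.2%), and not clearly apart for Mcm4, Mcm5 and Mcm7.

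ORC was split, with 3 of 6 genes lower, 3 not called and a median log2 fold change of -0.32. Orc2 had 1505, 1652, 1679 and 1509.9 normalised reads in cKO MED1, against 2919, 2461 and 2236 in WT, so that 62.5% of the WT mean remained (log2 fold change -0.67, SE 0.10, limma adjusted p = 0.00192). Orc1, the ATPase subunit that completes the complex in G1, had 595, 619.9, 629.5 and 551 in cKO MED1, against 994, 777 and 743 in WT (log2 fold change -0.47, SE 0.11, limma adjusted p = 0.0147). Neither gene's groups overlapped. Orc6, which is bound less tightly than the core subunits, was lower too (log2 fold change -0.54, limma adjusted p = 0.0174), with 921 to 1333 reads in cKO MED1 and 1423 to 1811 in WT. Orc4 had 2022, 2239.9, 2069 and 2125 in cKO MED1, against 2055, 2110.2 and 1923 in WT, and the 2 groups overlapped (log2 fold change 0.06, SE 0.08, limma adjusted p = 0.6). Its sign turned to -0.18 with total reads, -0.07 with the authors' size factors and -0.10 with TMM factors over all features. Orc5 had 767 to 893 reads in cKO MED1 and 805 to 909 in WT (log2 fold change -0.07, limma adjusted p = 0.574). Orc3 stood at 3103 ± 99.3 in cKO MED1 and 3491 ± 29.0 in WT (SD, n = 4 and 3) without overlap and was not called (log2 fold change -0.17, limma adjusted p = 0.109), but it was called lower with TMM factors over all features (-0.33, limma adjusted p = 0.0339) and by DESeq2 (-0.19, DESeq2 adjusted p = 0.0477). The Orc1 call ended without WT library 1 (-0.40, limma adjusted p = 0.0641) and the Orc6 call without WT library 1 (-0.50, limma adjusted p = 0.0609) or cKO MED1 library 4 (-0.44, limma adjusted p = 0.0511). Without WT library 3 the log2 fold change of Orc4 was -0.03.

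**Figure D5:**
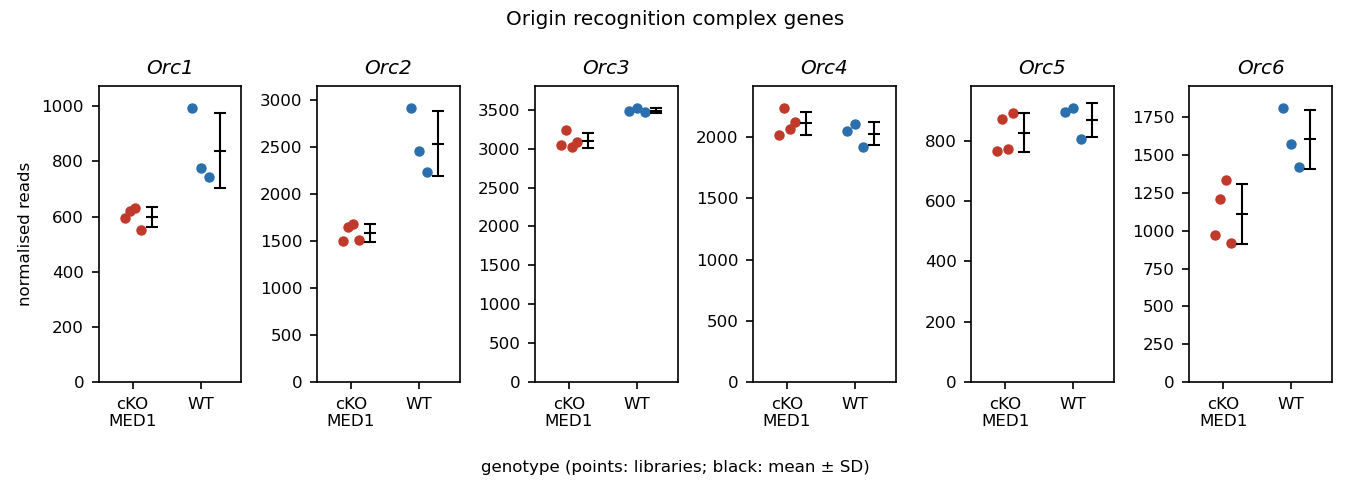
Normalised reads of the 6 ORC genes in each library, with points for libraries, black marks for mean ± SD, cKO MED1 (n = 4) left of WT (n = 3) and axes from 0. The groups are apart for Orc1, Orc2, Orc3 and Orc6, and they overlap for Orc4 and Orc5.

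The make-up of the ORC transcripts differed accordingly. Per kb of exon, Orc2 made up 21.1%, 20.7%, 21.2% and 21.0% of the summed ORC level in cKO MED1 libraries 1 to 4, against 27.3%, 25.4% and 24.9% in WT libraries 1 to 3. Orc4 made up 14.6%, 14.5%, 13.5% and 15.3% in cKO MED1, against 9.96%, 11.3% and 11.1% in WT. These shares do not depend on how libraries were scaled, and for both genes the groups were apart. The sum itself was 1959.5 ± 121 normalised reads per kb in cKO MED1 and 2535 ± 221 in WT (SD, n = 4 and 3). The exons of Orc2 overlap those of Nif3l1 on the opposite strand over 29.8% of their length, and the sources do not say whether reads were counted by strand.

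Among the licensing factors, both loaders of the helicase were lower and their inhibitor was not called. Cdt1, which brings MCM2-7 to ORC, had 1167, 1150.2, 1055 and 944 normalised reads in cKO MED1, against 1932, 1589 and 1529.8 in WT (log2 fold change -0.64, SE 0.11, limma adjusted p = 0.00344). Cdc6, the ATPase that joins ORC at the origin, had 1379, 1266, 1450.0 and 1099.9 in cKO MED1, against 2430.4, 1692 and 1824 in WT (log2 fold change -0.60, SE 0.13, limma adjusted p = 0.0107). All cKO MED1 libraries lay below all WT libraries for both genes. Cdc6 lies on chromosome 11, 0.715 Mb from the end of Med1. Gmnn, which encodes geminin, had 965, 1447, 1549 and 1079.8 in cKO MED1, against 1771, 1594 and 1420.4 in WT (log2 fold change -0.36, SE 0.16, limma adjusted p = 0.0995). Among the cKO MED1 libraries, 2 and 3 reached the WT range and 1 and 4 did not. Gmnn was called lower with total reads, with the authors' size factors and with TMM factors over all features. The log2 ratio of Gmnn to Cdt1 per kb was 1.30 ± 0.35 in cKO MED1 (SD, n = 4) and 1.02 ± 0.07 in WT (SD, n = 3), with cKO MED1 values of 0.83 to 1.65 on either side of the WT values.

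Of the 2 subunits of the kinase that fires licensed origins, 1 was called lower, with the smallest change among the 33 called genes. Dbf4, its regulatory subunit, had 2764, 2544, 2465 and 2219.9 normalised reads in cKO MED1, against 3253, 2939 and 2892 in WT (log2 fold change -0.28, SE 0.09, limma adjusted p = 0.0464). Cdc7, its catalytic subunit, had 1419, 1391, 1313 and 1193 in cKO MED1, against 1773, 1454 and 1453 in WT (log2 fold change -0.23, SE 0.10, limma adjusted p = 0.108). Groups did not overlap for either gene, but for Cdc7 the highest cKO MED1 library, number 1, lay close under the lowest WT library, number 3. The Dbf4 call ended in edgeR's test (edgeR adjusted p = 0.0505), without the filter (limma adjusted p = 0.0776) and with 6 of the 7 libraries left out in turn, that is with each but cKO MED1 library 1, at limma adjusted p = 0.0524 to 0.156. The log2 ratio of Dbf4 to Cdc7 per kb was -0.15 ± 0.04 in cKO MED1 (SD, n = 4) and -0.10 ± 0.07 in WT (SD, n = 3).

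Of the 6 genes whose products turn the loaded ring into the active helicase, 4 were lower, with a median of -0.45. Mcm10, which is needed for the first unwinding of the origin, had 1527, 1384, 1405 and 1105 normalised reads in cKO MED1, against 2561, 2065 and 1901 in WT (log2 fold change -0.68, SE 0.13, limma adjusted p = 0.00522). Cdc45, a stable part of the moving helicase, had 1542, 1594, 1691 and 1266 in cKO MED1, against 2686, 1957 and 2128 in WT (log2 fold change -0.56, SE 0.13, limma adjusted p = 0.0114). Both were lower in every cKO MED1 library than in any WT library. The 4 GINS subunits gave smaller log2 fold changes, of -0.50 for Gins1, -0.41 for Gins2, -0.33 for Gins3 and -0.32 for Gins4. Gins1 (limma adjusted p = 0.0275) and Gins2 (limma adjusted p = 0.0486) passed and Gins3 (limma adjusted p = 0.0651) did not. Gins4 had 756, 967, 1109 and 774 in cKO MED1, against 1210.4, 1199 and 956 in WT, with overlap and no call (limma adjusted p = 0.104). The Gins1 call ended without cKO MED1 library 4 (-0.40, limma adjusted p = 0.0728) or WT library 1 (-0.40, limma adjusted p = 0.117). The Gins2 call ended without cKO MED1 library 1 (-0.41), cKO MED1 library 4 (-0.28), WT library 1 (-0.37) or WT library 2 (-0.47), at limma adjusted p = 0.0666 to 0.154, and 67.3% of its exonic bases overlap Gse1 on the opposite strand. Gins3 was called lower without cKO MED1 library 1 (-0.40, limma adjusted p = 0.0341), and Gins4 without cKO MED1 library 3 (-0.41, limma adjusted p = 0.0479) or WT library 3 (-0.49, limma adjusted p = 0.0386). The log2 ratio of Mcm10 to Cdc45 per kb was -1.30 ± 0.11 in cKO MED1 (SD, n = 4) and -1.18 ± 0.12 in WT (SD, n = 3).

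Polymerase alpha and primase, which make the RNA and DNA primer of every fragment, were lower in 4 of 4 genes, with a median of -0.50. Pola1, the X-linked catalytic subunit of polymerase alpha, had 2370.0, 1975, 2106 and 2057 normalised reads in cKO MED1, against 3414, 2942 and 2926 in WT (log2 fold change -0.54, SE 0.10, limma adjusted p = 0.00387). Pola2, its accessory subunit, had 1527, 1324, 1326 and 1122 in cKO MED1, against 2321, 2004 and 1830.0 in WT (log2 fold change -0.63, SE 0.12, limma adjusted p = 0.00467). In the male cKO MED1 library, number 3, Pola1 and Pola2 were also below each male WT library. Prim1, the catalytic primase subunit, had 1512, 1689, 1819 and 1301 in cKO MED1, against 2461, 2150.2 and 1839.6 in WT (log2 fold change -0.45, SE 0.13, limma adjusted p = 0.0282). Here cKO MED1 library 3 lay close under WT library 3. Prim2, the regulatory primase subunit, was at 934 ± 57.3 in cKO MED1 and 1291 ± 168 in WT (SD, n = 4 and 3; log2 fold change -0.46, limma adjusted p = 0.0108). The log2 ratio of Prim2 to Prim1 per kb was -1.37 ± 0.14 in cKO MED1 and -1.35 ± 0.06 in WT. The Prim1 call ended without cKO MED1 library 4 (-0.33, limma adjusted p = 0.0772) or WT library 1 (-0.39, limma adjusted p = 0.102) and the Prim2 call without WT library 1 (-0.41, limma adjusted p = 0.0501).

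The replicative polymerases held the largest fall of the 43 genes. Pold1, the catalytic and proofreading subunit of polymerase delta, had 1996, 1866, 1746 and 1596 normalised reads in cKO MED1, against 3989.9, 3192 and 3135 in WT. The gene (ENSMUSG00000038644.14) lies on chromosome 7 from 44532746 to 44548849 in GRCm38. The highest cKO MED1 library was far below the lowest WT library, and 52.4% of the WT mean remained (log2 fold change -0.93, SE 0.11, limma adjusted p = 0.000416). Its call held under all 22 alternatives, with log2 fold changes of -1.17 to -0.82. Pold2, an accessory subunit of polymerase delta, had 1178, 1079, 1093 and 805 in cKO MED1, against 1779.8, 1511 and 1368 in WT (log2 fold change -0.59, SE 0.14, limma adjusted p = 0.0125). Pold3, another accessory subunit, had 2221, 2069, 1902 and 1836 in cKO MED1, against 2516, 2263 and 2238 in WT (log2 fold change -0.22, SE 0.09, limma adjusted p = 0.09). These 3 subunits of one enzyme thus spanned -0.93 to -0.22, although a test of the differences between genes was not made. Pole, the catalytic subunit of polymerase epsilon, stood at 3312 ± 345 in cKO MED1 and 4547 ± 542 in WT (SD, n = 4 and 3; log2 fold change -0.46, limma adjusted p = 0.0136). Pole2, its second subunit, was at 3743 ± 402 in cKO MED1 and 4476 ± 275 in WT (SD, n = 4 and 3; log2 fold change -0.26, limma adjusted p = 0.0692) and was not called. Without cKO MED1 library 1, Pold3 was called lower (-0.29, limma adjusted p = 0.0314), and without WT library 1 the Pole call ended (-0.41, limma adjusted p = 0.0613).

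The catalytic subunits of the lagging-strand and leading-strand polymerases were also set against each other within each library, as a description with no test. The log2 ratio of Pold1 to Pole per kb was 0.27, 0.38, 0.34 and 0.29 in cKO MED1 libraries 1 to 4, against 0.83, 0.82 and 0.74 in WT libraries 1 to 3. The means were 0.32 ± 0.05 in cKO MED1 (SD, n = 4) and 0.79 ± 0.05 in WT (SD, n = 3), the widest separation relative to spread among the 5 ratios described here. A ratio within a library is free of its scaling factor, and the male cKO MED1 library, at 0.34, was close to the 3 female ones.

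All 6 genes of the sliding clamp and its loader were lower, with a median of -0.48. Rfc1, the large subunit of the loader, had 2805, 2549, 2502 and 2094 normalised reads in cKO MED1, against 4149, 3825 and 3537 in WT (log2 fold change -0.63, SE 0.11, limma adjusted p = 0.00328). Rfc5, a small subunit, had 1739.9, 1741, 1839 and 1546 in cKO MED1, against 2795, 2358 and 2204 in WT (log2 fold change -0.51, SE 0.10, limma adjusted p = 0.00671). Groups were apart for both. Pcna, the clamp that holds the polymerases on DNA, had 7025, 8337, 9093 and 6823 in cKO MED1, against 11813, 10057 and 9588 in WT (log2 fold change -0.43, SE 0.12, limma adjusted p = 0.0267). At 3258 in cKO MED1 and 4369 in WT, Pcna had the highest mean level per kb of merged annotated exons of the 43 genes. The remaining small RFC subunits had log2 fold changes of -0.45 for Rfc2, -0.44 for Rfc3 and -0.67 for Rfc4. Without WT library 1, 3 of the 6 calls ended, those of Pcna (-0.39, limma adjusted p = 0.105), Rfc2 (-0.43, limma adjusted p = 0.0609) and Rfc3 (-0.39, limma adjusted p = 0.0735), and without cKO MED1 library 4 that of Pcna (-0.34, limma adjusted p = 0.0765). A Pcna pseudogene, Pcna-ps2, held 143 to 307 reads in the cKO MED1 libraries and 382 to 623 in the WT libraries before scaling. Eif4a2, on the opposite strand, overlaps 12.7% of the exonic bases of Rfc4. It held 9907 to 18010 reads in cKO MED1 libraries and 18051 to 21579 in WT libraries before scaling. Lat2 overlaps 15.1% of those of Rfc2 on the opposite strand, with 2972 to 5711 reads in cKO MED1 libraries and 6548 to 7490 in WT libraries. The part of these overlaps in the levels was not tested.

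Both genes that finish the lagging strand were lower. Fen1, the nuclease that removes displaced flaps, had 3142, 3059, 3032 and 2264 normalised reads in cKO MED1, against 5235, 3976 and 4145 in WT (log2 fold change -0.63, SE 0.13, limma adjusted p = 0.0084). Lig1, the ligase that seals the fragments, had 2814, 2618, 2384 and 1841 in cKO MED1, against 4197, 3513 and 3491 in WT (log2 fold change -0.64, SE 0.14, limma adjusted p = 0.00886). In both, all 4 cKO MED1 libraries lay below the 3 WT libraries with library 4 the lowest. Gm10143, an antisense gene that covers 78.8% of the exonic bases of Fen1, held 6 to 12 reads in cKO MED1 libraries and 6 to 9 in WT libraries before scaling.

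Within RPA, the large and middle subunits were lower and the small one was not. Rpa1, the main DNA-binding subunit, had 3716, 3752, 3659 and 2776 normalised reads in cKO MED1, against 5847, 4764 and 4812 in WT (log2 fold change -0.57, SE 0.12, limma adjusted p = 0.00936). Rpa2, the subunit phosphorylated after replication stress, had 1327, 1455, 1413 and 1067 in cKO MED1, against 2502, 1892 and 1967 in WT (log2 fold change -0.69, SE 0.13, limma adjusted p = 0.00503). Rpa3 had 699, 1294, 1544 and 1005 in cKO MED1, against 1106, 1090.2 and 908 in WT (log2 fold change 0.08, SE 0.21, limma adjusted p = 0.799). Its cKO MED1 libraries ran from below the lowest to above the highest WT library, the widest spread relative to level among the 3. The log2 fold change of Rpa3 turned to -0.16 with total reads, -0.05 with the authors' size factors and -0.08 with TMM factors over all features, and to -0.07 without either cKO MED1 library 3 or WT library 3.

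Other replication genes were examined as lists, beside 14.6% of all tested genes and 27.8% of the highest class by mean level called lower. Of 18 further replisome and firing factors, 14 were lower and 0 higher, with a median of -0.40. Mcmbp, which binds MCM proteins outside the ring, averaged 2763 ± 208 normalised reads in cKO MED1 and 3940.2 ± 344 in WT (SD, n = 4 and 3; log2 fold change -0.51, limma adjusted p = 0.00455). Timeless, a fork protection gene, had a log2 fold change of -0.50, Wdhd1, which tethers polymerase alpha to the helicase, -0.54 and Lrwd1, an ORC-associated protein gene, -0.43, all past the threshold. Of 16 genes for alternative clamp loaders, fragment processing and chromatin assembly, 14 were lower and 0 higher, with a median of -0.46. They included the ribonuclease H2 genes Rnaseh2b (-0.59) and Rnaseh2a (-0.43), Chtf8 of the alternative loader (-0.50) and Supt16, a histone chaperone subunit (-0.53). The counts for both lists were sensitive to single libraries. Without WT library 1 they were 3 and 3, beside 5.25% of all genes tested in that fit called lower. Without cKO MED1 library 4 they were 8 and 6, beside 8.9%. Without cKO MED1 library 2 they were 9 and 11, beside 2181 of 17062 tested genes. Without cKO MED1 library 3 they were 10 and 13, beside 2064 of 17159. Without cKO MED1 libraries 3 and 4 together they were 5 and 4, beside 7.34%. The list medians lay between -0.51 and -0.32 and between -0.58 and -0.36 in these fits and in that without WT library 2. Among the named genes the calls of Lrwd1 (-0.41, limma adjusted p = 0.0596) and Rnaseh2a (-0.42, limma adjusted p = 0.0536) ended without WT library 1.

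Of 13 genes of the E2F family and its partners, 4 were lower and 1 higher, with a median of -0.15. Among all tested genes 14.6% were called lower and 13.4% higher. In the highest class by mean level 27.8% were called lower, and the median of that class was also -0.15. Tfdp1, the DNA-binding partner of E2F proteins, averaged 4054 ± 468 normalised reads in cKO MED1 and 5921 ± 623 in WT (SD, n = 4 and 3; log2 fold change -0.55, limma adjusted p = 0.0075). E2f4 (-0.35), a repressor-type E2F, and Rbl1 (-0.28), the pocket protein p107 gene, were lower as well, as was E2f8 (-0.50). Rb1, the retinoblastoma protein gene, was higher, with 3619, 3483, 3198 and 3834 in cKO MED1, against 2561, 2399.9 and 2919.8 in WT (log2 fold change 0.43, SE 0.10, limma adjusted p = 0.0113). That call ended with total reads (0.19, limma adjusted p = 0.419), the authors' size factors (0.30, limma adjusted p = 0.0826) and TMM factors over all features (0.27, limma adjusted p = 0.0821), and without WT library 1 (0.36, limma adjusted p = 0.0851) or WT library 2 (0.31, limma adjusted p = 0.083). E2f1, an activator E2F, had 446 ± 47.3 in cKO MED1 and 422 ± 57.7 in WT (SD, n = 4 and 3; log2 fold change 0.08, limma adjusted p = 0.638), with a sign that turned under the same 3 scalings (-0.16, -0.05 and -0.07). The count of 4 lower genes was 1 without WT library 1, 1 without cKO MED1 library 4 and 2 without cKO MED1 library 2. E2f4 and Rbl1 lost their calls without either of the first pair, and E2f4 without the other. Tfdp1 kept its call in each of these fits, and E2f8 in none of them. The shares of all tested genes called lower in these fits are given above.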

How the data were processed

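Total RNA of 7 splenic B cell cultures was depleted of ribosomal RNA and sequenced from stranded libraries after 14 cycles of amplification as paired reads of 150 bp, per the labels' protocols. The authors deposited 1 table of gene values, a signal in which each library's read counts had been divided by a size factor of its own. The evidence is in the values, as 100.0% were whole multiples of their library's step within a tolerance of 1e-06, and whole reads were recovered from them. The tools, per the submitters' processing notes, were DESeq2, R 3.4, Subread 1.5.0-p3, featureCounts and STAR 2.4.0a, with the builds mm10 and GRCm38. Whether counting used strand is not stated in those sources. A phiX174 row, at most 0.000383% of the reads, was left out.

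Recovered reads (31937372 to 61149274 for each library) were scaled with TMM factors (edgeR 4.0.16), computed over the 18062 genes kept by filterByExpr, to a common effective library of 48019763 and are called normalised reads. Sampling of reads is a lower bound of the error, so SD and SE between libraries are given. In R 4.3.3, limma 3.58.1 with its trend option was fitted to log2(normalised reads + 1) of all 18062 genes, two-sided, with Benjamini-Hochberg adjustment and a threshold of 0.05. Folds on this scale understate changes of low genes. edgeR's quasi-likelihood test on the recovered reads called 5340 genes, and limma 5065, of which 2419 were higher and 2646 lower. On simulated reads of 17651 genes with known changes, the same fit found 19.7% of 66 genes changed by 0.5 (log2), 62.7% of 67 changed by 1 and 85.1% of 67 changed by 2, beside 3 false calls. The simulated reads were drawn independently for each gene, with few changed genes and no shift of a library shared by many genes. These rates therefore need not hold for the data.

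Exonic lengths, positions and overlaps came from the GENCODE annotation of GRCm38, which placed 44105 features (93.9%), and promoter windows from RefSeq. The genes and lists were chosen with earlier results of these data known. Values of every library are given for the 6 MCM genes, for all genes of role groups of 3 or fewer, and elsewhere for the 2 genes with the smallest and the 1 with the largest adjusted p. Up to 4 genes with the smallest adjusted p are named per list, and Med1 always. E2f1, E2f8 and genes named for their overlaps were picked with their values in view. The alternatives were DESeq2 1.42.0, other scalings, the replicate number as a block, a stricter threshold of 0.01, a pseudocount of 5, genes unfiltered or filtered at CPM 1 in 3 libraries, sex as a covariate, receptor background subtracted and each library left out. TMM factors over all features were added after seeing the data.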

Additional observations from a re-analysis of the deposited data

Results flagged for a closer look

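Among the 44 groups of 4 libraries examined, 43 replication genes and Med1 in cKO MED1, 6 had 1 library set far from the other 3, and in each it was cKO MED1 library 4, on the low side. A group was flagged when the gap between its extreme library and the next made up most of its range. The rule was not run on all tested genes, for which cKO MED1 library 4 lay at an end of the first principal component. For independent groups, chance would flag about 1 in 20, but these 44 groups share the same 4 libraries, so their flags are not independent. The normalised reads in that library were 2108 for Mcm2, 4279 for Mcm3, 6777 for Mcm6, 2268 for Rfc2, 2264 for Fen1 and 2776 for Rpa1. In the other 3 cKO MED1 libraries Mcm2 lay between 2971 and 3058, Mcm3 between 5849 and 6069 and Mcm6 between 9123 and 9286. Rfc2 lay there between 2807 and 2909, Fen1 between 3032 and 3142 and Rpa1 between 3659 and 3752. This library also had the most reads of olfactory and vomeronasal receptor genes, 104 ppm of all reads against 30.5, 40.6 and 65.3 in cKO MED1 libraries 1 to 3, and the part of this in the low values was not tested directly. Without it, all 6 genes were still called lower.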

How the results depend on the processing

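Of all tested genes 5065 were called, and 228 with sex as a covariate, 2145 without cKO MED1 replicates 3 and 4, 1307 at a threshold of 0.01 and 1556 to 6126 with 1 library left out. Of the replication genes 33 were called lower, and 1 with sex as a covariate, 18 at a threshold of 0.01, 32 by edgeR and 35 by DESeq2. With 1 library left out, 22 to 34 of them were called lower. Of all tested genes 2646 were called lower, and 794 at a threshold of 0.01, 2665 by edgeR and 3027 by DESeq2. With 1 library left out, 1029 to 3114 of all tested genes were called lower. The median log2 fold change of the replication genes, -0.54, was -0.78 with total reads and -0.70 with TMM factors over all features. These scalings and the authors' size factors moved the median of all genes to -0.21, -0.12 and -0.10, against 0.04, and the share of calls that were higher to 31.8%, 31.9% and 37.3%, against 47.8%. The replication genes' median minus that of all genes was -0.58 under all 6 scalings, and 39, 40 and 37 of them were called lower. Of all 18062 tested genes, 4379, 4363 and 3585 were called lower with total reads, TMM factors over all features and the authors' size factors. With the filter of CPM 1 in 3 libraries 31.9% of calls were higher and 33 replication genes lower, beside 2668 of all 12562 genes tested in that fit. Orc4, at 0.06, turned to -0.18, -0.07 and -0.10 with total reads, the authors' size factors and TMM over all features, and was -0.03 to 0.09 with 1 library left out. Rpa3, at 0.08, turned to -0.16, -0.05 and -0.08 with the same scalings, to -0.11 without cKO MED1 replicates 3 and 4, and was -0.07 to 0.28 with 1 library left out. The cause was not tested. The deviations of same-numbered libraries correlated at 0.515, -0.235 and 0.163, and those of libraries with different numbers at -0.584 to 0.401. With so few libraries per group, these values cannot settle whether replicate numbers pair the libraries. With the replicate number as a block, which leaves cKO MED1 replicate 4 without weight, 3741 genes were called, 1822 of them lower. In that fit 27 replication genes were called, and no replication gene changed sign. The log2 fold changes of Pold1 and Med1 kept their direction and call in every alternative.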
